A study of Mus musculus with 10 samples.

Results

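The 37 genes described here encode the protein folding and secretion machinery of the endoplasmic reticulum (ER). They were taken by symbol from a list of chaperones, degradation factors, translocon subunits and stress sensors, and all 37 are among the 24972 genes of the table. By role they are 17 chaperones and folding enzymes, 9 degradation genes, 7 translocon genes, and 4 genes of the stress sensors and their transcription factor Xbp1. Testing required 10 or more scaled counts on average across the 10 libraries, which 36 of them reached and Derl3 did not. A scaled count is a gene's count after the authors brought the libraries to a common depth.

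Liver RNA was measured by 3′ end sequencing in 4 libraries of the T cell-low group and 6 of the T cell-high group, to compare livers of mice whose tumours differ in T cell class. Both groups are labelled as wild-type mice that carried a pancreatic ductal adenocarcinoma of a KPC-derived cell line, KPC being a genetically engineered mouse model of this cancer. All T cell-low libraries belong to the line 6419c1 and all T cell-high libraries to the line 6555c3, so that the T cell class and the line cannot be told apart. Age and time of tumour growth are not given in the labels, and no tumour-free liver was analysed here. Whether every library is a separate mouse is not stated in the labels, so p-values reflect the spread among the libraries, part of which may be technical. Total scaled counts were 7060777 to 8257373 in T cell-low libraries, against 7000659 to 7513620 in T cell-high libraries.

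Proteins that leave a cell enter the ER through the Sec61 channel, are folded there by chaperones such as BiP (the product of Hspa5) and by disulfide isomerases, and are sent back to the cytosol for degradation when they fail to fold. When unfolded proteins build up, the membrane sensors IRE1 (Ern1), PERK (Eif2ak3) and ATF6 (Atf6) start the unfolded protein response, in which ATF6 and the spliced form of XBP1 switch on chaperone and degradation genes. Hepatocytes secrete most plasma proteins and depend on this machinery, which is also very active in plasma cells and pancreatic acinar cells.

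The libraries of a group were not alike in these genes. T cell-low 1 had the highest value of all 10 libraries in 13 of the 36 tested members, while 5.65% of all tested genes had their highest value there. T cell-low 2 had the lowest value in 22 of the 36, against 17.4% of all tested genes. Among the T cell-high libraries, numbers 1, 3, 5 and 6 were higher than all other libraries in 93 of the 11110 tested genes and lower in 5. The log2 difference required was 1 or more, and Syvn1 was the member among these genes. The labels do not name this set of libraries. By the same measure T cell-low 2, 3 and 4 stood apart from all other libraries in 316 genes. In 27 of the 36 members T cell-low 1 was above T cell-low 2, 3 and 4, against 31.3% of all tested genes. T cell-low 2, 3 and 4 lay below every T cell-high library in 9 members and above every one in 2, which 13.7% and 13.5% of all tested genes did. The calls were therefore also made without these libraries.

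**Figure D1:**
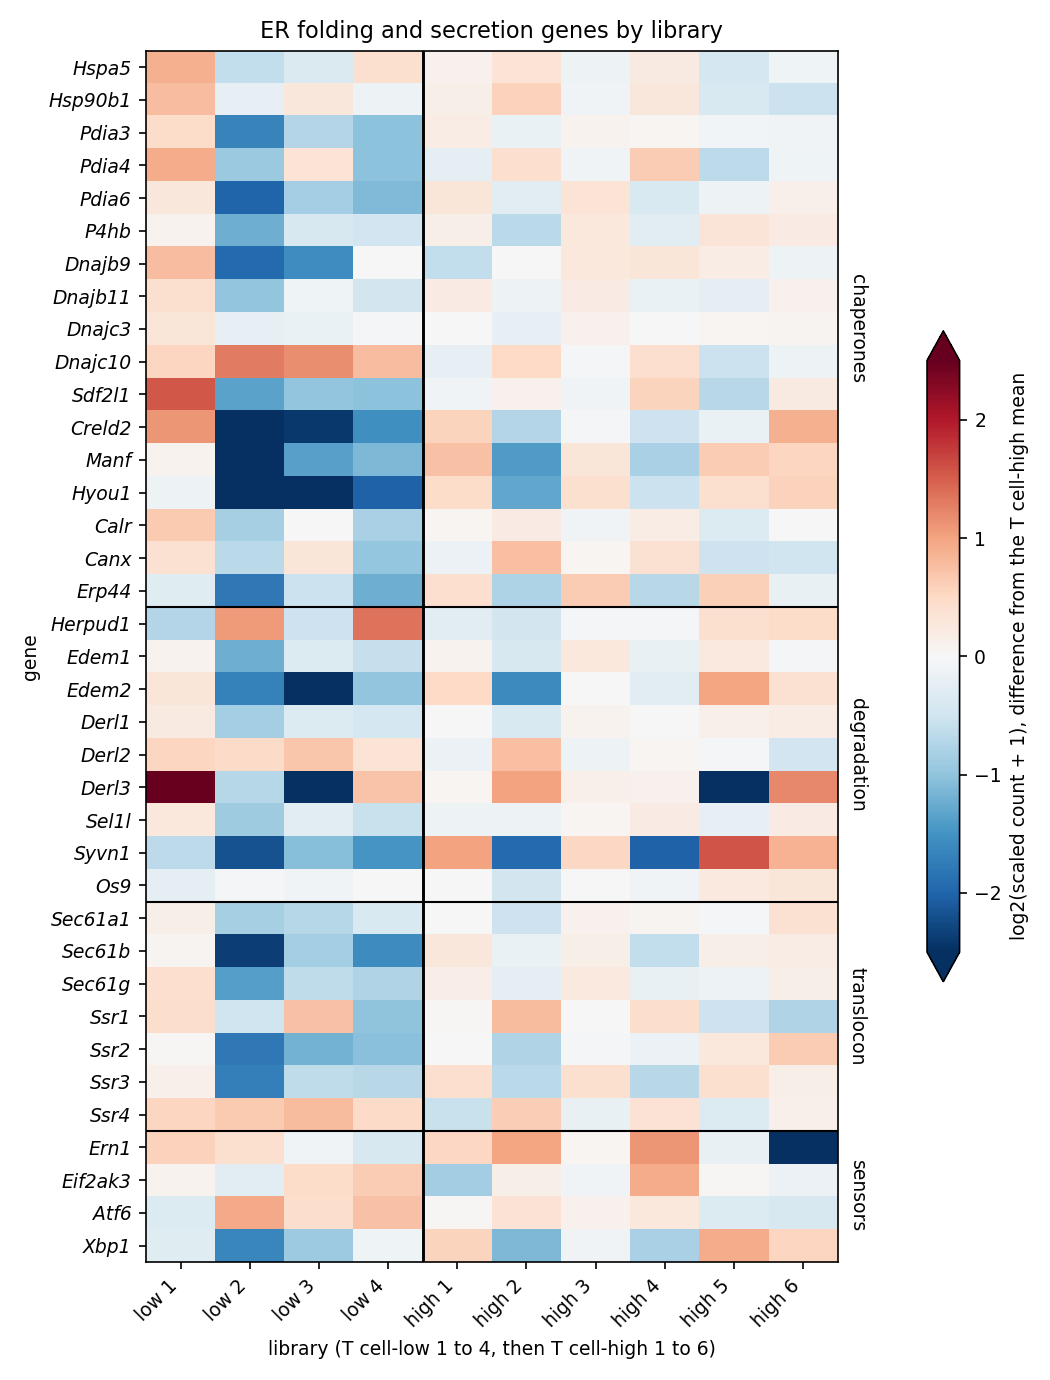
Difference of each library from the T cell-high mean (log2 of the scaled count plus 1) for the 37 genes, in rows by role, with T cell-low libraries 1 to 4 left of T cell-high libraries 1 to 6. Colours are cut off at the ends of the scale. The first T cell-low column is red through most of the chaperones, where the columns of T cell-low 2, 3 and 4 are mostly blue.

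Hyou1 fell and Dnajc10 rose in T cell-low livers, and they were the 2 of 36 tested members that passed the test (limma, Benjamini-Hochberg adjusted p below 0.05 over all 11110 genes tested). That is 5.56% of the members, when 12.8% of all tested genes passed, and the members' share is below that background. Separately, 5.39% of all genes were called higher and 7.39% lower. The fold change was below 0 in 27 of the 36 members. Their median log2 fold change (T cell-low minus T cell-high, as everywhere below) was -0.41, beside 0.003 over all genes. With T cell-low 1 left out it was -0.61, and with T cell-low 2 left out -0.19. An unadjusted p below 0.05 was seen for 12 of the 36 members and 3830 of the 11110 genes.

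Hyou1 (chromosome 9, 44379490 to 44392369 in mm10) encodes GRP170, a large chaperone that exchanges nucleotide on BiP. Its scaled counts were 632, 69.5, 103 and 169 in T cell-low libraries 1 to 4, and 959, 283, 911, 477, 912 and 1034 in T cell-high libraries 1 to 6. T cell-low 2, 3 and 4 lay below every T cell-high library, while T cell-low 1 lay among them. The log2 fold change was -2.05 (SE 0.54, adjusted p = 0.0322, limma). Leaving out T cell-low 2, 3 or 4 or T cell-high 1, 3, 5 or 6 gave limma adjusted p-values from 0.0678 to 0.116, with log2 fold changes from -2.06 to -1.64, so the call was lost while the fold stayed near its size. In the same 7 comparisons 109 to 508 genes were called in all, against 1420 with every library. Without T cell-low 1 the adjusted p of Hyou1 was 0.000759 (limma).

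Dnajc10 (chromosome 2, 80315466 to 80354043) encodes ERdj5, a disulfide reductase that works with BiP in the clearance of misfolded proteins. It had 302, 518, 468 and 358 scaled counts in T cell-low libraries, against a lowest of 143, a median of 196 and a highest of 296 in T cell-high libraries. It was the 1 tested member whose groups did not overlap, as 7.39% of all tested genes did not. The log2 fold change was 0.94 (SE 0.25, adjusted p = 0.0311, limma). Leaving out T cell-low 2, 3 or 4, or T cell-high 1, 3, 5 or 6, gave limma adjusted p-values from 0.0649 to 0.11 and ended this call too, with log2 fold changes from 0.82 to 1.00.

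**Figure D2:**
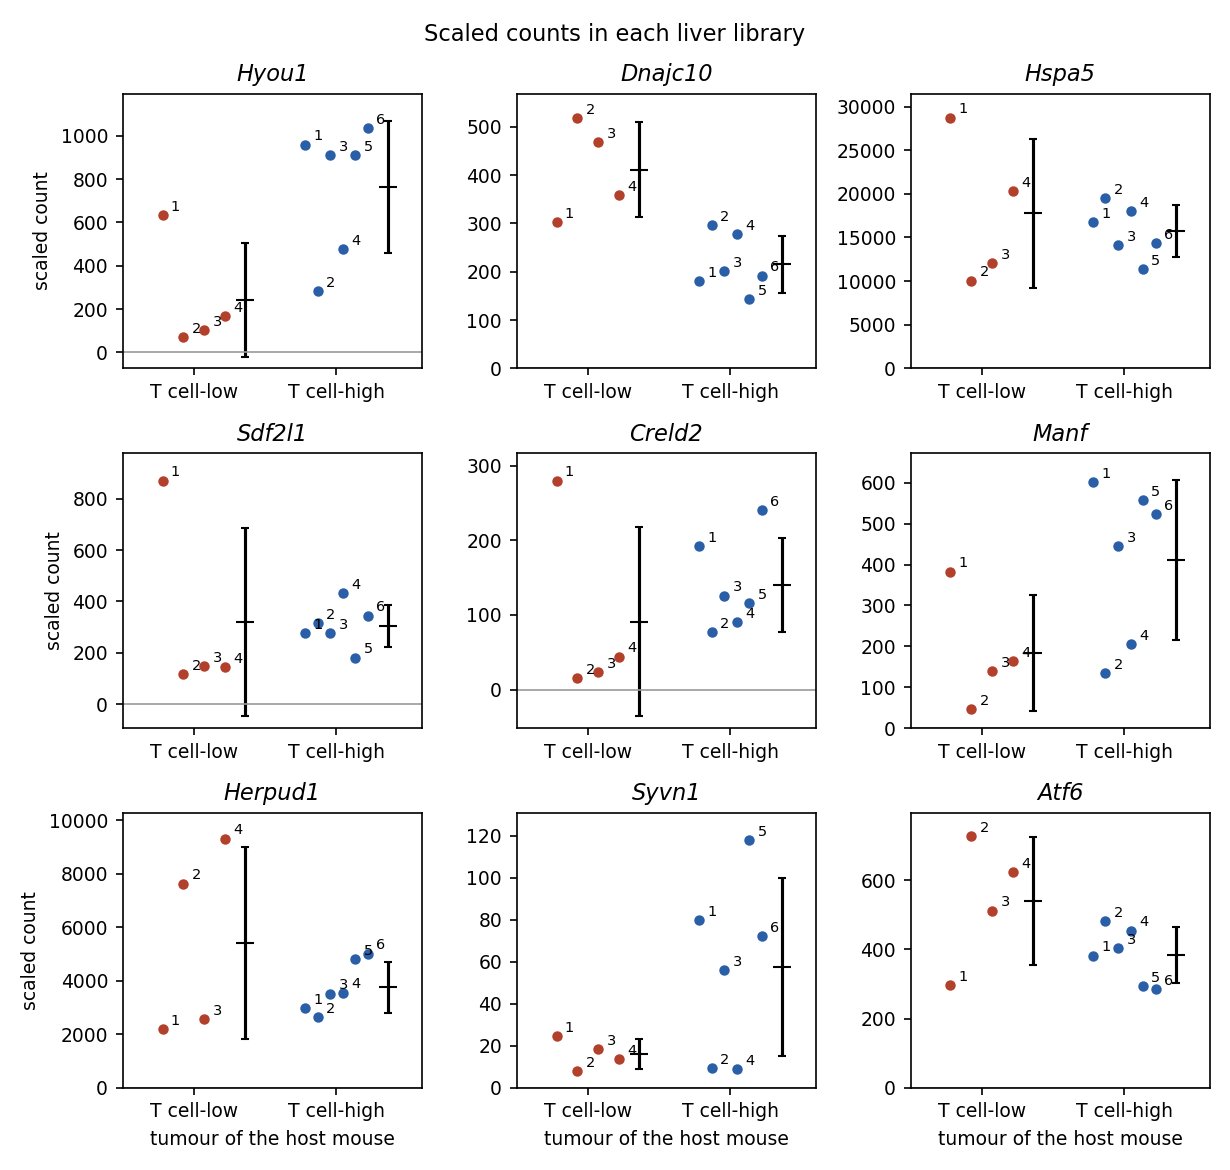
Scaled counts of 9 members in each library, T cell-low left of T cell-high, with the library number beside each point and the mean and SD of the group as a black bar (n = 4 and n = 6). SD bars reach below 0 where T cell-low 1 lies far above the other T cell-low libraries, as for Sdf2l1 at 871 scaled counts against 116 to 148.

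Hspa5 (chromosome 2, 34771970 to 34777547), the gene of BiP, had 28734, 10055, 12091 and 20284 scaled counts in T cell-low libraries. In T cell-high libraries the lowest value was 11353, the median 15560 and the highest 19529. T cell-low 1 and 4 lay above all T cell-high libraries, T cell-low 2 below all of them and T cell-low 3 among them. The log2 fold change was 0.08 with a 95% interval from -0.54 to 0.70 (adjusted p = 0.864, limma), and it was -0.04 when libraries were rescaled to equal totals. Hsp90b1, the gene of the HSP90 of the ER, averaged 9531 ± 3093 scaled counts in T cell-low libraries, against 8380 ± 2399 in T cell-high libraries (SD, n = 4 and n = 6), with a 95% interval of the log2 fold change from -0.38 to 0.74. A neighbouring gene on the opposite strand covers its 3′ end, as is also the case for Pdia6, Dnajb11, Manf, Syvn1 and Sec61a1.

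Sdf2l1, Creld2 and Manf, 3 cofactors known to respond to ER stress, were far higher in T cell-low 1 than in T cell-low 2, 3 and 4. Sdf2l1 (chromosome 16, 17130138 to 17132383), which keeps client proteins soluble together with the BiP cofactor ERdj3, had 871 scaled counts in T cell-low 1, whereas T cell-low 2, 3 and 4 had 116, 148 and 144. T cell-high libraries had a lowest of 181, a median of 297 and a highest of 431, above T cell-low 2, 3 and 4 and below T cell-low 1. Creld2 (chromosome 15, 88819646 to 88826683), a disulfide isomerase-like protein released under ER stress, followed the same order with 280, 15.7, 23.5 and 44.3 scaled counts in T cell-low libraries and 77.4, 121 and 240 as the lowest, median and highest of the T cell-high libraries. Manf, a secreted BiP partner and trophic factor, had 383, 46.6, 139 and 164 scaled counts in T cell-low libraries, against 601, 135, 446, 205, 557 and 523 in T cell-high libraries. Here T cell-high 2 and 4 lay near the T cell-low libraries, as they did for Hyou1. None of the 3 passed the test, with log2 fold changes of -0.45 (SE 0.47), -1.45 (SE 0.64) and -1.33 (SE 0.54) for Sdf2l1, Creld2 and Manf. Among B cell and plasma cell genes, the B cell gene Ms4a1 was also highest in T cell-low 1, with 34 scaled counts against at most 20.2 elsewhere. Mzb1 had 11.1 there and at most 8.15 elsewhere, but is uncertain, since 92.7% of its 3′ end words occur in SPATA24, a gene lying over it on the same strand. The plasma cell gene Jchain had 2.63 in T cell-low 1 and up to 6.16 elsewhere, and Tnfrsf17 was listed at 0 in all 10 libraries. The whole list of these markers summed to 1017 scaled counts in T cell-low 1. That was below T cell-low 4 (1066) and the highest T cell-high library, number 5 (1454). Most of each sum came from Sdc1 and from Xbp1, which is itself a member. Sdc1 gave 747, 814 and 1044 scaled counts of these sums in the same order, while Xbp1 gave 162, 186 and 385. The sum therefore does not give the level of the other markers. The part of B cells and plasma cells in the values of T cell-low 1 was not tested.

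Many ER chaperone genes are known to answer stress through the ER stress element, a CCAAT box followed after 9 bases by CCACG, to which NF-Y and ATF6 bind. Promoters of Hyou1, Manf, Derl1, Sec61a1, Ssr2 and Atf6 were missing from the set used, so these members were not searched. RefSeq promoters (build GRCm38.p6, 250 bases before to 50 after the start) were available for the other 31 members. The full element, searched on both strands, was found in 9 of them (29%), against 37 of 27025 genes with a promoter in the same table (0.137%) and 14 of 8769 tested genes (0.16%). By role it was in 7 of 15 chaperone promoters, 2 of 8 degradation promoters, 0 of 5 translocon promoters and 0 of 3 promoters of sensors and Xbp1. Since the element is known from ER chaperone genes, its higher share among the members is not independent evidence. The 10 elements of these 9 genes are shown as a sequence feature that these 9 members share. They are written 5′ to 3′ on the strand where they read CCAAT to CCACG, with both boxes in capitals.
Hspa5: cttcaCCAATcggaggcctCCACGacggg
Hsp90b1, nearer the start: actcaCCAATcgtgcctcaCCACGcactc
Hsp90b1, farther from the start: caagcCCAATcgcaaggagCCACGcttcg
Pdia6: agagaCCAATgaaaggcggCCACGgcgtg
Dnajc3: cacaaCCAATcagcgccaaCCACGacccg
Creld2: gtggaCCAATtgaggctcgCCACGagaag
Calr: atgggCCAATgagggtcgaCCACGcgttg
Canx: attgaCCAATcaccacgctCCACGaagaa
Derl3: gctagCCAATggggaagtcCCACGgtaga
Syvn1: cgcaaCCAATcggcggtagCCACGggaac

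With 5 bases on either side, as printed, these elements take up 29 bases each, at chr2:34772020-34772048 (Hspa5), chr10:86705528-86705556 and chr10:86705633-86705661 (Hsp90b1), chr12:17266486-17266514 (Pdia6), chr14:118937822-118937850 (Dnajc3), chr15:88819515-88819543 (Creld2), chr8:84847070-84847098 (Calr), chr11:50325795-50325823 (Canx), chr10:75893237-75893265 (Derl3) and chr19:6046527-6046555 (Syvn1). The element of Creld2 spans 126 to 108 bases before the RefSeq start and reads against the gene. The 250 bases before that start (chr15:88819396-88819645, plus strand) hold it as CGTGG and ATTGG, in capitals, which are the same boxes read on the other strand.
Creld2 promoter: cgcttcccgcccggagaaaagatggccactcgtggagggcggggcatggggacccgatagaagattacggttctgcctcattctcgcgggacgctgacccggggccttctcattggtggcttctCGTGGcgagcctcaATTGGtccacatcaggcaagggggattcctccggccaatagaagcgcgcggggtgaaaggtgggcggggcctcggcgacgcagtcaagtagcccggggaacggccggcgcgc

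Of the 8 tested members with the element, only Hspa5 (SE 0.29) and Hsp90b1 (SE 0.26) had a fold change above 0. On the log2 scale the 8 fold changes were 0.08 for Hspa5, 0.18 for Hsp90b1, -0.92 for Pdia6, -0.03 for Dnajc3, -1.45 for Creld2, -0.25 for Calr, -0.24 for Canx and -1.34 for Syvn1, and none passed the test. Without T cell-low 1 all 8 were below 0, with Hspa5 at -0.19 and Hsp90b1 at -0.01. Pdia6 (-1.32) and Creld2 (-2.30) were then called, where 32.7% of all tested genes were. Without T cell-low 2 Hspa5 and Hsp90b1 were at 0.31 each, and no member was called. Sdf2l1, whose values spread like those of Creld2, did not hold the full element in its window, nor did Dnajc10. TGACGTG, the core that ATF6 and XBP1 bind, was in 1 of the 31 member promoters (3.23%, Hspa5), in 2.22% of all promoters and in 3.31% of those of tested genes. The CCACG box alone was in 77.4% of member promoters, 35.5% of all promoters and 51.8% of those of tested genes. The CCAAT box alone was in 77.4% of member promoters, 41.1% of all promoters and 43.2% of those of tested genes. A match describes the letters of these windows and shows no binding.

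Among the disulfide isomerases, Pdia3 and Pdia6 were low in T cell-low 2, 3 and 4. Pdia3, which serves glycoproteins held by calnexin and calreticulin, had 4953, 1125, 2152 and 1774 scaled counts in T cell-low libraries and a lowest of 3218, a median of 3583 and a highest of 4063 in T cell-high libraries. Pdia6 had 1367, 278, 625 and 524 in T cell-low libraries, against 867, 1126 and 1425 as the lowest, median and highest in T cell-high libraries. In both genes T cell-low 2, 3 and 4 lay below every T cell-high library and T cell-low 1 did not. The log2 fold changes were -0.74 (SE 0.31, adjusted p = 0.117) for Pdia3 and -0.92 (SE 0.35, adjusted p = 0.0877) for Pdia6 with limma. Erp44, which retrieves escaped folding enzymes through thiol bonds, had 148, 52.1, 126 and 77.7 scaled counts in T cell-low libraries, against 106, 204 and 286 in T cell-high libraries as the lowest, median and highest. Its log2 fold change was -0.96 (SE 0.37, adjusted p = 0.0919, limma). P4hb, the founding protein disulfide isomerase, averaged 2168 ± 760 in T cell-low libraries, against 3000 ± 717 in T cell-high libraries (SD, n = 4 and n = 6).

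Among the other chaperones the groups overlapped widely. Pdia4 averaged 3902 ± 2518 scaled counts in T cell-low libraries, against 3887 ± 1259 in T cell-high libraries (SD, n = 4 and n = 6). The lectin chaperone genes Calr and Canx had log2 fold changes of -0.25 (95% interval -0.85 to 0.35) and -0.24 (-0.94 to 0.46). The BiP cofactor genes Dnajb11 and Dnajc3 had -0.29 (-0.82 to 0.25) and -0.03 (-0.39 to 0.33). Dnajb9, the gene of ERdj4, which binds IRE1 and BiP, had 118, 17.1, 22.8 and 69.3 scaled counts in T cell-low libraries and 44.5, 73.7 and 84.5 as the lowest, median and highest of the T cell-high libraries. T cell-low 1 was again the highest of all 10 libraries and T cell-low 2 the lowest.

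No degradation gene passed the limma test, with 8 of 9 tested and 2 of the 8 at an unadjusted p below 0.05, and 6 of the 8 fold changes were below 0 (median -0.36). Leaving out T cell-low 1 gave a median of -0.56, leaving out T cell-low 2 gave -0.19, and leaving out T cell-high 1, 3, 5 and 6 together gave -0.02. Herpud1 (chromosome 8, 94386438 to 94395377) encodes a scaffold of the degradation complex. It ran opposite to the chaperone median, given below, in T cell-low 1, 2 and 4 but not in T cell-low 3. It had 2196, 7634, 2560 and 9318 scaled counts in T cell-low libraries, against a lowest of 2643, a median of 3541 and a highest of 5015 in T cell-high libraries. T cell-low 1 was the lowest and T cell-low 4 the highest of all 10 libraries, and the log2 fold change was 0.29 (SE 0.39, adjusted p = 0.617, limma). Immediate early genes were also highest in T cell-low 2 and 4, as the medians given below show.

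Syvn1, the ubiquitin ligase HRD1 of ER degradation, had 24.6, 7.9, 18.3 and 13.5 scaled counts in T cell-low libraries, and 79.7, 9.48, 56.2, 8.96, 118 and 72.4 in T cell-high libraries. Its T cell-high values split into 4 libraries above all others and 2 within the T cell-low range. This is the split of T cell-high 1, 3, 5 and 6, for which Syvn1 was itself among the genes counted. The log2 fold change was -1.34 (SE 0.70, adjusted p = 0.192, limma), and 0.64 with those 4 libraries left out. Sel1l, the adaptor that holds Syvn1 in its complex, had 1840, 830, 1252 and 1044 in T cell-low libraries and 1332, 1499 and 1770 as the lowest, median and highest in T cell-high libraries. Edem1 and Edem2, which trim mannose from misfolded glycoproteins, had log2 fold changes of -0.51 (SE 0.25) and -1.25 (SE 0.57).

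The derlins, membrane proteins that help move misfolded proteins out of the ER, did not share a pattern. Derl1 had 927, 439, 625 and 585 scaled counts in T cell-low libraries and 613, 819 and 903 as the lowest, median and highest in T cell-high libraries. Derl2 had 1136, 1092, 1268 and 995 in T cell-low libraries, above 5 of the 6 T cell-high libraries, whose values were 705, 1311, 720, 810, 751 and 563. The log2 fold changes were -0.36 (SE 0.21, adjusted p = 0.25) for Derl1 and 0.52 (SE 0.22, adjusted p = 0.119) for Derl2 with limma. Derl3 was below the filter, with 48.9, 2.4, 0 and 8.18 scaled counts in T cell-low libraries and 4.78, 10.2, 5.1, 5.04, 0 and 11.9 in T cell-high libraries. It too was highest in T cell-low 1. The lectin gene Os9, whose product delivers glycoproteins to Sel1l, averaged 1899 ± 128 in T cell-low libraries, against 2034 ± 368 in T cell-high libraries (SD, n = 4 and n = 6), with a 95% interval of the log2 fold change from -0.47 to 0.31.

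None of the 7 translocon genes passed the limma test, with 3 at an unadjusted p below 0.05, and 6 of 7 fold changes were below 0 (median -0.58, or -0.91 when T cell-low 1 is left out and -0.32 when T cell-low 2 is). Sec61b (chromosome 4, 47474658 to 47483242), a small subunit of the channel, had 552, 102, 293 and 177 scaled counts in T cell-low libraries, against 345, 582 and 643 as the lowest, median and highest in T cell-high libraries. T cell-low 2, 3 and 4 lay below all T cell-high libraries. Its log2 fold change was -1.17 (SE 0.38, adjusted p = 0.0555, limma), and it was called when libraries were rescaled to equal totals. The other small subunit gene Sec61g had 5396, 1568, 2622 and 2409 in T cell-low libraries and 3413, 4078 and 4826 as the lowest, median and highest in T cell-high libraries, and its log2 fold change was -0.58 (SE 0.28). Both are uncertain, since 24.4% and 24.5% of the 50-base words at their transcript ends occur in other genes. Sec61a1, the gene of the pore itself, averaged 1823 ± 590 in T cell-low libraries, against 2437 ± 466 in T cell-high libraries (SD, n = 4 and n = 6).

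The 4 Ssr genes encode the subunits of the translocon-associated protein complex and differed among themselves. Ssr2 had 354, 100, 152 and 167 scaled counts in T cell-low libraries and 206, 344 and 534 as the lowest, median and highest in T cell-high libraries, and differed by -0.99 on the log2 scale (SE 0.33, adjusted p = 0.0635, limma). Ssr4 (chromosome X) had 3753, 4049, 4501 and 3613 in T cell-low libraries, against 1747, 3950, 2260, 3309, 2040 and 2836 in T cell-high libraries. For Ssr4 all T cell-low libraries were above 5 of the 6 T cell-high libraries, and the log2 fold change was 0.62 (SE 0.23, adjusted p = 0.0868, limma). Ssr3 and Ssr1 had -0.73 (SE 0.35) and -0.09 (SE 0.37).

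No sensor gene passed the test, nor did Xbp1, with 0 of the 4 at an unadjusted p below 0.05 (limma). Atf6 (chromosome 1, 170704674 to 170867771) had 296, 727, 512 and 623 scaled counts in T cell-low libraries and a lowest of 285, a median of 393 and a highest of 482 in T cell-high libraries. T cell-low 2, 3 and 4 were above every T cell-high library and T cell-low 1 near the bottom of them, the reverse of Hyou1. Its log2 fold change was 0.44 (SE 0.26, adjusted p = 0.242, limma). Eif2ak3 averaged 77.3 ± 20.9 in T cell-low libraries, against 68.2 ± 29 in T cell-high libraries, and Ern1 averaged 27.1 ± 8.39 in T cell-low libraries, against 30.9 ± 18.4 in T cell-high libraries (SD, n = 4 and n = 6). Their 95% intervals of the log2 fold change were -0.46 to 0.93 for Eif2ak3 and -1.18 to 1.42 for Ern1. The interval of Ern1 leaves room for large differences in either direction, and that of Eif2ak3 more for a rise than for a fall.

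Xbp1, the transcription factor whose RNA is spliced by IRE1, had 162, 64.1, 107 and 186 scaled counts in T cell-low libraries. In T cell-high libraries 1 to 6 it had 297, 91.3, 190, 114, 385 and 291, with T cell-high 2 and 4 within the T cell-low range. For Xbp1 the fold change was -0.74 on the log2 scale (SE 0.42, adjusted p = 0.227, limma), and 0.23 with T cell-high 1, 3, 5 and 6 left out. A value per gene does not separate its spliced from its unspliced form.

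Set side by side, the 4 roles spread differently over the libraries. Each role was summarised per library by a median over its tested members, each taken as the log2 difference from the mean of the T cell-high group. For chaperones it was 0.46, -1.22, -0.39 and -0.97 in T cell-low libraries 1 to 4, and within -0.16 to 0.15 in T cell-high libraries. For degradation genes it was 0.16, -0.87, -0.34 and -0.50 in T cell-low libraries, against -0.43 to 0.25 in T cell-high libraries. Translocon genes had 0.14, -1.37, -0.65 and -0.75 in T cell-low libraries, and -0.25 to 0.14 in T cell-high libraries. These 3 roles thus shared the order of the T cell-low libraries, with library 1 highest and library 2 lowest. Sensors and Xbp1 had -0.11, 0.07, 0.18 and 0.27 in T cell-low libraries, with library 1 lowest, against -0.28 to 0.60 in T cell-high libraries. Over all tested genes the same median lay between -0.00 and 0.03 in every library. Between the groups, the median log2 fold change was -0.45 for chaperones, -0.36 for degradation, -0.58 for translocon and 0.18 for sensors and Xbp1. Leaving out 1 library at a time gave -0.70 to -0.15, -0.56 to -0.19, -0.91 to -0.32 and -0.09 to 0.38 in the same order. With the trend on transcript length removed these medians were -0.27, -0.39, -0.36 and 0.06, beside 0.042 over all genes.

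**Figure D3:**
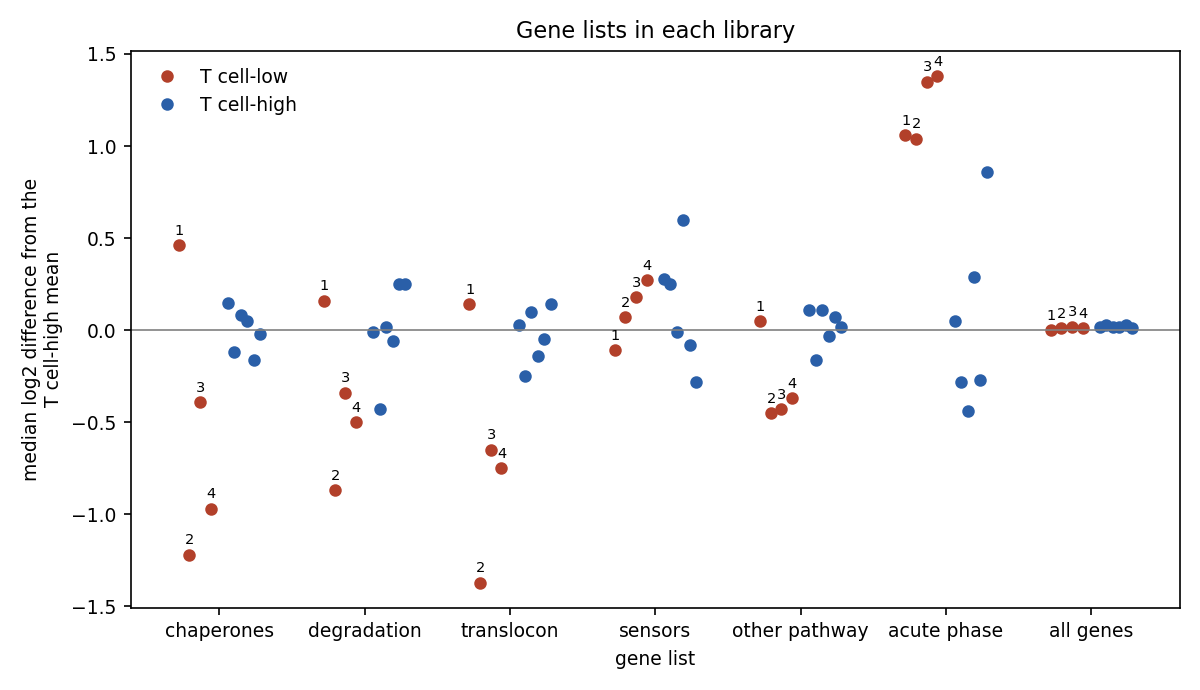
Median, over the tested genes of each list, of the log2 difference to the mean of T cell-high libraries, 1 point per library, T cell-low left of T cell-high in each list and T cell-low libraries numbered. T cell-low 1 lies above T cell-low 2, 3 and 4 for chaperones, degradation, translocon and other pathway genes, and all T cell-low libraries lie above 0 for acute phase genes.

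Immediate early genes were listed as a sign of RNA quality and handling. Among T cell-low libraries they were lowest in number 1, where chaperones, degradation and translocon genes were highest. They were highest in number 4, whereas those roles were lowest in number 2. Their median was 0.04, 2.00, 0.79 and 2.24 in T cell-low libraries 1 to 4, and -0.53 to 0.31 in T cell-high libraries. Of 11 tested, 3 rose in T cell-low livers (Btg2, Klf6 and Ier3), and 2 had a fold change below 0. The summed level of the 12 was 1416 to 8530 scaled counts in T cell-low libraries, against 870 to 2385 in T cell-high libraries. Their part in the differences between the T cell-low libraries was not tested.

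Because T cell-low 1 carried the high values, the comparison was repeated without it. Then 19 of the 36 tested members were called (52.8%), against 32.7% of all tested genes. In this comparison 17 members fell (47.2%, against 17.2% of all genes) and 2 rose (5.56%, against 15.5%). By role 8 of 17 chaperones, 4 of 8 degradation genes, 5 of 7 translocon genes and 0 of 4 sensor genes fell. The chaperones were Pdia3, Pdia6, Dnajb9, Sdf2l1, Creld2, Manf, Hyou1 and Erp44. The degradation genes were Edem1, Edem2, Derl1 and Sel1l, and the translocon genes were Sec61a1, Sec61b, Sec61g, Ssr2 and Ssr3. Creld2 fell by 2.30 on the log2 scale (SE 0.40, adjusted p = 0.00161), Hyou1 fell by 2.69 (SE 0.41, adjusted p = 0.000759) and Pdia3 fell by 1.14 (SE 0.21, adjusted p = 0.00201) with limma. Dnajc10 and Atf6 rose, with log2 fold changes of 1.08 (SE 0.25, adjusted p = 0.00736) and 0.71 (SE 0.22, adjusted p = 0.0297). Hspa5 had -0.19 (SE 0.25, adjusted p = 0.576). This library is singled out here after its values were seen, and the number of calls among all genes also grew without it. It was above T cell-low 2, 3 and 4 in 27 of the 36 members, against 31.3% of all tested genes. Leaving it out was therefore bound to lower the fold change in a larger share of the members. The larger share of members that fell is not independent evidence. Without T cell-low 2 instead, the library lowest in most members, 0 of 37 tested members were called by limma (5 at an unadjusted p below 0.05), against 0.982% of all tested genes.

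**Figure D4:**
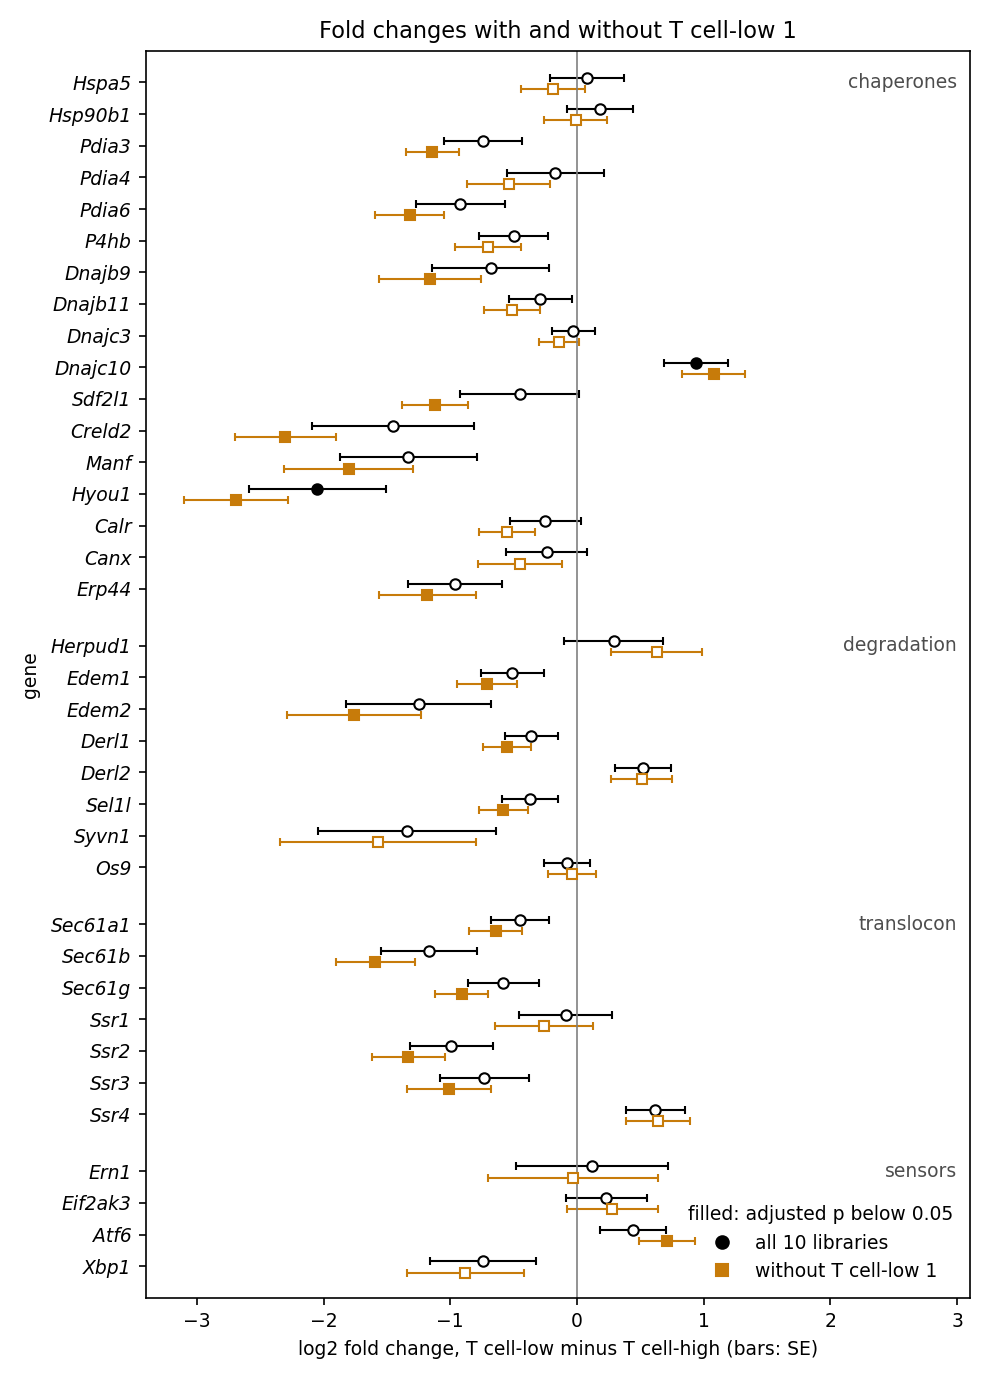
Log2 fold change (T cell-low minus T cell-high) of the 36 tested members with its SE, by role, for all 10 libraries (circles) and without T cell-low 1 (squares). Filled symbols mark an adjusted p below 0.05. Of the 36 members, 2 are filled with all libraries and 19 without T cell-low 1, and those 19 include Dnajc10 and Atf6 on the right of 0.

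Without T cell-high 1, 3, 5 and 6, the comparison of 4 T cell-low with 2 T cell-high libraries called no member and no gene at all (limma), with an unadjusted p below 0.05 for 0 members and 1027 genes. The fold change of Hyou1 was then -1.14 (SE 0.75, adjusted p = 0.609) and that of Dnajc10 0.49 (SE 0.32, adjusted p = 0.61). With T cell-low 1 left out as well, 1 of 36 tested members was called, against 465 of 10979 genes. That member was Sdf2l1, lower in T cell-low livers. The comparison was chosen after the data were seen, and it leaves out the library with the highest Sdf2l1 value.

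In the rest of the secretory pathway, 101 further genes were listed and 98 tested, of which 9 fell and 1 rose in T cell-low livers, with a median log2 fold change of -0.30, where 12.8% of all tested genes were called. Ost4 and Ostc are small subunits of the oligosaccharyltransferase that attaches sugar chains, and their log2 fold changes were -3.09 (SE 0.82, adjusted p = 0.0327) and -1.54 (SE 0.46, adjusted p = 0.0464) with limma. Ost4 counts were low, at 9.72, 0, 2.6 and 0 in T cell-low libraries against 4.13, 26.5 and 48.3 as the lowest, median and highest of the T cell-high libraries. The log2 fold changes of the folding enzymes Sdf2, Fkbp2 and Txndc5 were -1.50 (SE 0.32), -1.07 (SE 0.25) and -1.42 (SE 0.36). Those of Ganab, the catalytic subunit of glucosidase II, of the signal peptidase subunit Spcs1 and of the ER ubiquitin ligase Rnf5 were -1.47 (SE 0.43), -0.77 (SE 0.24) and -2.30 (SE 0.51). Srp54a of the signal recognition particle fell by 1.01 (SE 0.28), but 64.9% of its 3′ end words occur in Srp54b and Srp54c, so its value is uncertain. Erlec1, a lectin of ER degradation, rose by 1.05 (SE 0.26) with 281, 564, 563 and 378 scaled counts in T cell-low libraries and 154, 197 and 296 as the lowest, median and highest in T cell-high libraries. These calls too depend on single libraries: leaving out 1 library at a time gave from 0 to 44 called genes of this list, the most without T cell-low 1.

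No gene of COPII export was called by limma among 20 tested (7 at an unadjusted p below 0.05, median log2 fold change -0.43), where Mia2, a protein of ER exit sites, averaged 2060 ± 233 scaled counts in T cell-low libraries, against 2117 ± 371 in T cell-high libraries (SD, n = 4 and n = 6). Nor was any of 13 other stress sensors and downstream factors, 2 of them at an unadjusted p below 0.05, whose median log2 fold change was 0.63 (0.30 with T cell-low 2 left out and 0.35 with T cell-low 4 left out). Their median differed between T cell-low libraries, at -0.15, 1.11, 0.07 and 0.87. The liver factor gene Creb3l3 averaged 2729 ± 1045 in T cell-low libraries, against 3116 ± 837 in T cell-high libraries (SD, n = 4 and n = 6).

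Genes of secreted cargo were listed as well. Of 17 acute phase genes, which the liver induces in inflammation, 12 rose and 0 fell in T cell-low livers, with a median log2 fold change of 1.20. Since the study's title names a family in this list, its direction is not independent evidence. Itih3, which encodes a heavy chain of inter-alpha-trypsin inhibitor, had 19819, 31381, 41558 and 42356 scaled counts in T cell-low libraries, against 5304, 6983 and 9707 as the lowest, median and highest in T cell-high libraries (log2 fold change 2.16, SE 0.26, adjusted p = 0.00331, limma). Hpx, which binds free haem, and Saa2, an acute phase apolipoprotein, had log2 fold changes of 1.54 (SE 0.25) and 3.93 (SE 0.74). The acute phase median was 1.06, 1.04, 1.35 and 1.38 in T cell-low libraries 1 to 4, against -0.44 to 0.86 in T cell-high libraries. Itih3 was lowest in T cell-low 1 among the T cell-low libraries, as was Hpx, with 56362 scaled counts there and 79062 to 103418 in T cell-low 2, 3 and 4. Saa2 was not, with 28025, 3990, 10703 and 37712 scaled counts in T cell-low libraries 1 to 4. Of 10 plasma proteins of the steady state 2 rose (Apoa1 and Apob) and 0 fell, and their median was 0.08.

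The tissue matched its label, with all 8 hepatocyte markers present and a sum of 364085 to 531212 scaled counts in T cell-low libraries, against 239402 to 489003 in T cell-high libraries. Among them 4 fold changes were above 0 and 4 below (median 0.17), and Apoa1 and Arg1 rose in T cell-low livers. In bulk tissue, fewer cells of a type and less RNA per cell cannot be told apart. Plasma cell and B cell markers (12 listed, 4 tested, 0 called by limma and 1 at an unadjusted p below 0.05, with Sdc1 at 601 ± 209 in T cell-low libraries, against 924 ± 179 in T cell-high libraries) summed to 523 to 1066 in T cell-low libraries, against 767 to 1454 in T cell-high libraries, Xbp1 being in this list too. Acinar markers (14 listed, 2 tested, with Cel listed at 0 throughout) summed to 140 to 230 in T cell-low libraries, against 265 to 495 in T cell-high libraries, mostly Cela1, which fell by 1.22 on the log2 scale (SE 0.23). The other tested acinar marker, Cela2a, went the opposite way, at 1.69 on the log2 scale (SE 0.64, adjusted p = 0.0897, limma). All 5 tested neutrophil markers rose (S100a8, S100a9, Ngp, Lcn2 and Retnlg), the 10 listed summing to 1286 to 3065 in T cell-low libraries, against 100 to 1005 in T cell-high libraries. Lcn2 is in the acute phase list too. It had 1758 of the 3065 scaled counts in T cell-low 4 and 871 of the 1005 in T cell-high 6. Kupffer cell markers (0 of 8 called, 0 at an unadjusted p below 0.05, with Cd5l at 2290 ± 828 in T cell-low libraries, against 2080 ± 1111 in T cell-high libraries) summed to 5256 to 9064 in T cell-low libraries, against 2826 to 11359 in T cell-high libraries, and stellate cell and fibroblast markers (0 of 9 called, 3 at an unadjusted p below 0.05, 6 of 9 fold changes below 0 and their median -0.13, with Dcn at 3100 ± 884 in T cell-low libraries, against 2308 ± 361 in T cell-high libraries) to 3336 to 4949 in T cell-low libraries, against 2375 to 3285 in T cell-high libraries. Of 7 endothelial markers Lyve1 and Stab2 rose and 3 had a fold change below 0 (median 0.21, 5 at an unadjusted p below 0.05), with sums of 2192 to 2644 in T cell-low libraries, against 1963 to 2875 in T cell-high libraries. Of 8 ductal markers 4 were tested and Msln rose, with sums of 316 to 478 in T cell-low libraries, against 144 to 259 in T cell-high libraries. The part of these cells in the members' values was not tested.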

How the data were processed

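Per the labels' protocols, total liver RNA kept in TRIzol was purified on RNeasy columns and made into QuantSeq FWD libraries, which read transcript ends. The build mm10, STAR and DESeq2 are named, without versions, per the submitters' processing notes. No source used here gives the read counter or annotation. For each gene and library the authors deposited a signal, which is a count scaled to a common depth. Of the values above 0, 0.191% were whole within 0.001, so whole reads were not recovered, and no counting interval is given.

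Groups come from the sample titles. Genes with a mean of at least 10 were compared on log2(scaled count + 1) by limma 3.58.1 in R 4.3.3 with a variance trend (13.1 degrees of freedom, two-sided, Benjamini-Hochberg over 11110 genes, called below 0.05). The quasi-likelihood test foreseen for whole counts did not apply to scaled values. Fold changes on this scale understate the change of low genes. The members and gene lists were chosen with earlier results of these data known. All 37 members are named. Of each pathway list up to 3 called genes of lowest adjusted p are named, of each marker list the called ones, and of a list with none called the gene of highest mean. Ms4a1, Mzb1, Jchain, Cela2a and the markers listed at 0 (Tnfrsf17 and Cel) fall outside this rule and were chosen after their values were seen. One B cell marker is not reported here by itself.

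Positions are from GENCODE vM21, in which all members matched. A 3′ end counts as shared when 20% of the 50-base words in its last 400 bases occur in another gene. Promoters are RefSeq's (GRCm38.p6). Alternatives were other scalings, filters, pseudocounts, thresholds, library weights, a replicate block, removal of the trend on transcript length and left-out libraries. Figures were drawn with matplotlib 3.10.9.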

Additional observations from a re-analysis of the deposited data

Results flagged for a closer look

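Of 74 pairs of a member and a group, 4 held a library far from the rest of its group on the log2(scaled count + 1) scale, judged by its gap to the nearest library over the range of the group (Dixon's 95% limit). Chance alone gives about 1 in 20. Sdf2l1 in T cell-low 1 had 871 scaled counts, against 116 to 148 in T cell-low 2, 3 and 4 (gap 0.877 of the range). Derl1 in T cell-high 2 had 613, where its group otherwise ran from 787 to 903 (0.646). Derl3 in T cell-high 5 was listed at 0, against 4.78 to 11.9 (0.687). Ern1 in T cell-high 6 had 3.43, against 20.9 to 52.8 (0.640).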

How the results depend on the processing

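Hyou1 and Dnajc10 kept their direction under all 24 alternatives (10 libraries left out in turn and 14 others). Both stayed called under rescaling to equal totals or with TMM, other filters and pseudocounts, the robust option, library weights and removal of the transcript length trend, which was chosen after seeing the data. Leaving out 1 library at a time gave 109 to 3633 called genes, 0 to 19 called members and 0 to 44 called genes of the other pathway lists, the highest each time without T cell-low 1 and the lowest without T cell-low 2, among others. Library weights gave 3266 genes, 17 members and 43 other pathway genes. A threshold of 0.1 gave 2871, 7 and 28. Without T cell-high 1, 3, 5 and 6 the counts were 0, 0 and 0, and without T cell-low 1 as well, an alternative also chosen after seeing the data, they were 465, 1 and 3.

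The labels do not say whether replicate numbers pair the libraries, and the values did not settle it. Deviations of same-numbered libraries correlated at 0.104, 0.211, -0.099 and -0.151. The libraries of 2 of the 4 numbers correlated best with their own number. With the replicate block on libraries 1 to 4 of both groups 285 genes, 1 member (Hyou1) and 0 other pathway genes were called, and without the block on the same libraries 21, 0 and 0.

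Rescaling to equal totals moved the median of all genes to -0.115 and of the members to -0.53, and the split of called genes to 421 higher and 1068 lower, beside 599 and 821. The promoter share of 29% was 3.23% for TGACGTG and 77.4% for CCACG or CCAAT alone.

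Some members changed sign, none of them called on either side. Most had fold changes near 0, but Syvn1 (-1.34) and Xbp1 (-0.74) did not, and changed sign without T cell-high 1, 3, 5 and 6. In both genes those libraries held the highest values, so leaving them out was bound to raise the fold change. Over the libraries left out in turn the log2 fold changes ran from -0.19 to 0.31 for Hspa5, -0.01 to 0.31 for Hsp90b1, -0.54 to 0.11 for Pdia4, -0.14 to 0.03 for Dnajc3, -0.06 to 0.63 for Herpud1, -0.36 to 0.22 for Ssr1 and -0.38 to 0.34 for Ern1. Hspa5 was -0.04 with equal totals. With libraries 1 to 4, block or not, Hspa5 was -0.06, Hsp90b1 -0.05, Os9 0.06 and Ern1 -0.55. Without T cell-high 1, 3, 5 and 6, Hspa5 was -0.20, Hsp90b1 -0.25, Dnajc3 0.07, Syvn1 0.64, Os9 0.19, Ern1 -0.93, Eif2ak3 -0.30 and Xbp1 0.23. Without T cell-low 1 as well, Hspa5 was -0.47, Hsp90b1 -0.44, Syvn1 0.41, Os9 0.24, Ern1 -1.08, Eif2ak3 -0.26 and Xbp1 0.08. Without the length trend Pdia4 was 0.01, Os9 0.07 and Ern1 -0.06, and with a pseudocount of 10 Ern1 was -0.01. The cause of these changes was not tested. The look at protein endings planned for the chaperones was not run. With values already scaled, the depth behind low genes such as Derl3, Syvn1 and Ern1 is unknown.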

Other observations

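Alg12, a mannosyltransferase gene that builds the sugar chain attached to proteins in the ER, was chosen after its values were seen. It faces Creld2, and their promoter windows share 173 bases, with the ER stress element among them. It had 33.7, 10.2, 4.6 and 9.96 scaled counts in T cell-low libraries 1 to 4, against a lowest of 17.5, a median of 23.8 and a highest of 45.9 in T cell-high libraries. T cell-low 2, 3 and 4 lay below all T cell-high libraries and T cell-low 1 among them, and the log2 fold change was -1.14 (SE 0.49, adjusted p = 0.118, limma). Of the 37 genes with the element in their promoter 14 were tested, and the 1 called was Acacb, which is not a member and fell by 2.21 on the log2 scale (adjusted p = 0.0108, limma).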
